A study of Homo sapiens with 12 samples.

Results

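The proteasome genes were followed across 12 arrays of HK-2 cells, an immortalised line from the proximal tubule of the human kidney. The members were all probe sets that the array annotation assigns to a single gene whose symbol starts with PSMA, PSMB, PSMC, PSMD, PSME, PSMF or PSMG, leaving out the immunoproteasome genes PSMB8, PSMB9 and PSMB10. This took 94 of 54675 probe sets on the array, under 47 symbols. Of these, 78 probe sets belong to 39 genes of the proteasome, its activators and its assembly chaperones. The other 16 probe sets carry 8 symbols that only share the letters, such as antisense RNAs, and are described apart. Cells received the compound Aa or its control and were taken after 24 h or 48 h, which makes 4 groups of 3 arrays. The labels of all groups carry the letters ld, read here as low dose. The study sought expression signatures of kidney toxicity over several compounds. The labels name neither what Aa stands for nor its dose, and they leave the vehicle unnamed. Replicates are labelled as biological, but whether they were separate cultures is not said, and each p-value rests on the spread among 3 arrays a group, which may be technical.

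The proteasome is the large protease that degrades proteins tagged with ubiquitin. Its barrel-shaped core stacks outer rings of alpha subunits (PSMA genes) on inner rings of beta subunits (PSMB genes), of which PSMB5, PSMB6 and PSMB7 carry the active sites. A regulatory particle on either end binds, unfolds and feeds the substrate, with a ring of ATPases (PSMC genes) and a set of non-ATPase subunits (PSMD genes). Other activators (PSME genes) can take its place, and dedicated chaperones (PSMG genes, PSMD5, PSMD9 and PSMD10) assemble the parts. The proximal tubule reabsorbs filtered protein, and its cells rely on lysosomes and proteasomes for protein turnover.

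Values are log2 intensities as deposited, and differences are Aa minus control on that log2 scale unless stated. Of the 39 genes, 38 had a probe set with a mean of at least 4 over all arrays and were tested; PSMA8, the testis form of an alpha subunit, had a mean of 3.06 and was not. Each gene was represented by its brightest probe set, whose means ran from 8.88 for PSME4 to 13.61 for PSMB1. A total of 10791 genes was tested in the same way. PSMA6, PSMB11, PSMC5, PSMD7, PSMD13 and PSME2 were not analysed here. The array medians over all probe sets ran from 2.93 to 3.01, and the 3' minus 5' difference of actin from 0.63 to 1.15. The actin difference went with the array number: in each group it was highest on array 2 (0.90 to 1.15) and lowest on array 3 (0.63 to 0.76). Epithelial markers were past the filter in 5 of 5 cases and markers of the proximal tubule in 4 of the 13 on the array (SLC3A1, PAX8, CDH6 and ABCC4), while LRP2, CUBN and AQP1, defining transport and uptake genes of that segment, were below it. Among markers of other cells, 0 of 4 endothelial, 0 of 4 leukocyte and 3 of 5 fibroblast genes (COL1A1, DCN and LUM) passed. With Aa, the 4 tubule markers past the filter all fell at 48 h, where 20.1% of all genes tested were called down. The differences were -1.87 for SLC3A1, -1.48 for CDH6, -0.61 for ABCC4 and -0.45 for PAX8 (limma adjusted p = 0.0118, 0.000975, 0.0246 and 0.0101). The call of PAX8 ended without the Aa array 2 and that of ABCC4 without any of 4 arrays, and CDH6 differed by -0.14 without the probe sets that can read several transcripts. The mean log2 level of these 4 genes ran from 10.83 to 11.28 on the control arrays and from 9.57 to 10.46 on the Aa arrays at 48 h, and from 10.70 to 11.06 and from 10.11 to 10.68 at 24 h, where none was called. At 24 h the epithelial keratin KRT19 fell by 0.71 and the fibroblast collagen COL1A1 fell by 0.85 (adjusted p = 0.0141 and 0.0276). These calls ended without the control array 3 for KRT19 and without any of 3 arrays for COL1A1. At 48 h 0 of the 5 epithelial and 0 of the 3 fibroblast markers past the filter were called. KRT8, KRT18 and COL1A1 then lay above control by 0.50, 0.35 and 0.35, and 3 epithelial and 2 fibroblast markers lay below. The part of these shifts in the proteasome values was not tested. In such bulk RNA, fewer cells of a kind and less RNA per cell cannot be told apart.

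On the brightest probe set of each gene, few proteasome genes were called with Aa in the fit without the replicate number. Those that were called moved in both directions by small amounts (-0.66 to 0.48 on the log2 scale). More genes were called with the replicate number as a block, as given below. Other probe sets of some proteasome genes rose by more, up to 3.08 for PSMA5 at 24 h, and are described further on. With each gene taken as the mean of its probe sets, 6 genes were called at 24 h (5 of them up) and 12 at 48 h (9 up). The share of all genes called in that setting is not given here, so these counts have no background beside them. At 24 h, 2 of 38 genes (5.26%) passed an adjusted p of 0.05 in limma with Benjamini-Hochberg adjustment over all genes tested, against 23.1% of all genes. PSMG3 rose (background upwards 10.3%) and PSMD4 fell (background downwards 12.8%). At 48 h, 8 of 38 (21.1%) passed, against 37.8% of all genes: PSMB5, PSMD2, PSMD5 and PSMG3 rose (background upwards 17.8%), and PSMA3, PSMD4, PSME4 and PSMG1 fell (background downwards 20.1%). At both times the share of proteasome genes called was below the background. The median difference was -0.01 at 24 h and 0.12 at 48 h, beside -0.02 and -0.00089 over all genes, and single genes ran from -0.66 to 0.44 at 24 h and from -0.59 to 0.48 at 48 h. At an unadjusted p of 0.05, 7 genes passed at 24 h and 14 at 48 h, beside 3868 and 5088 of all 10791 genes. The arrays of the groups did not overlap for 5 genes higher and 8 lower with Aa at 24 h (background 40.5% in either direction), and for 7 higher and 5 lower at 48 h (background 48.4%). With the replicate number as a block, 3 genes were up and 5 down at 24 h (background 41.3% in either direction). At 48 h 12 were up and 5 down (background 54.8%, from 2885 genes up and 3032 down of 10791).

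**Figure D1:**
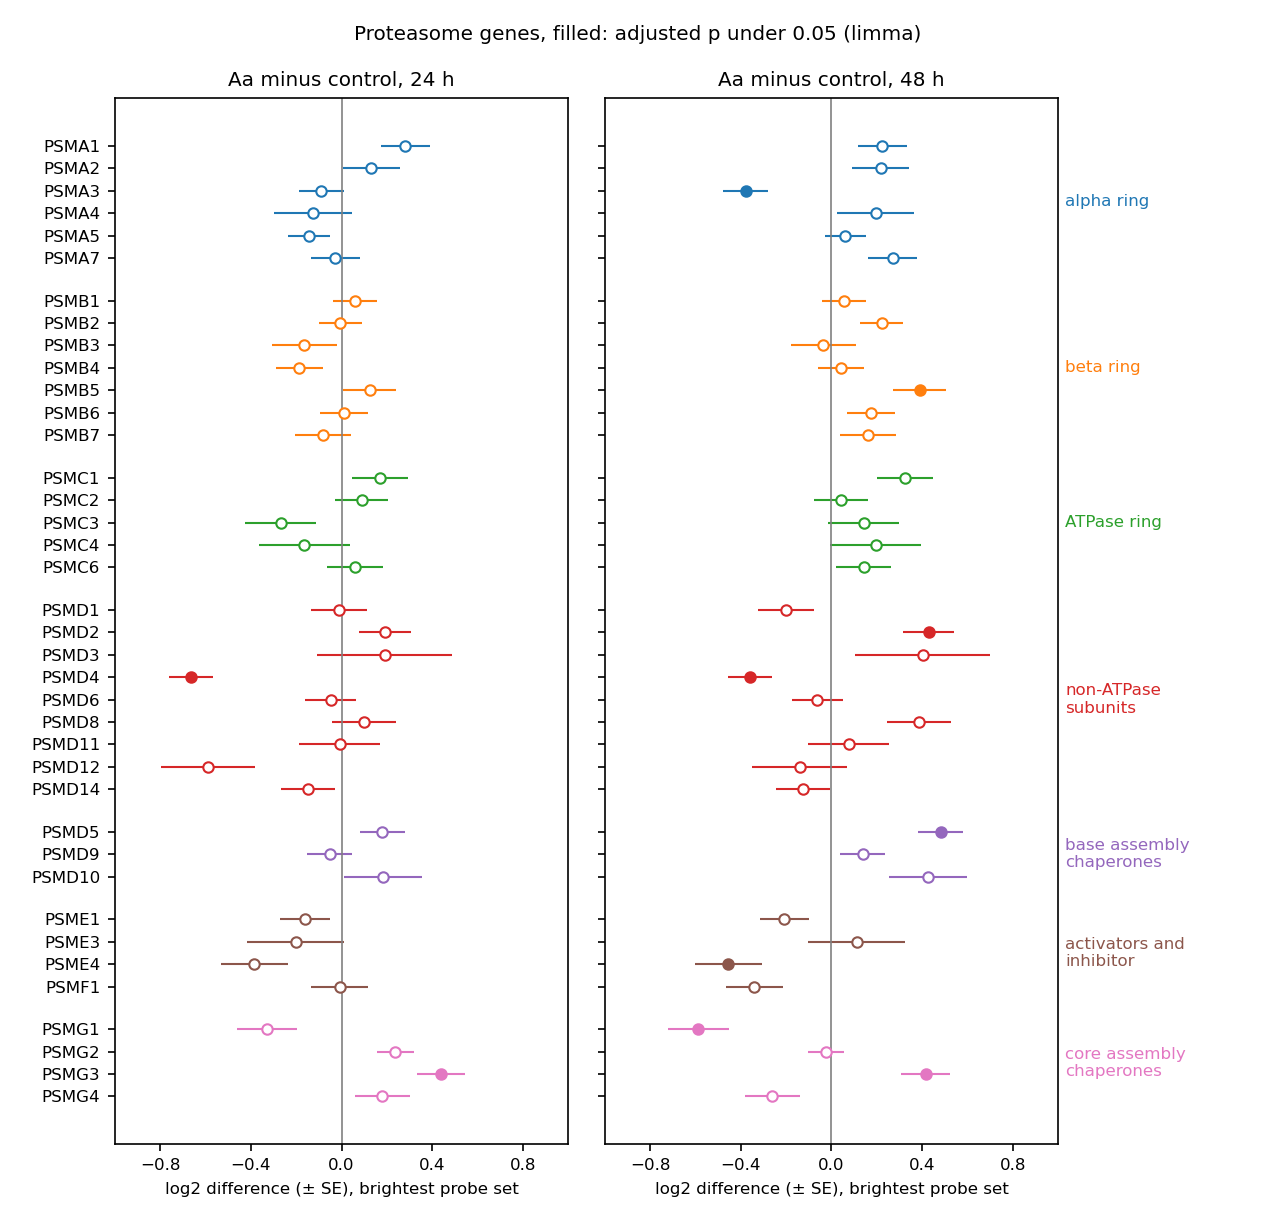
Log2 difference of Aa minus control with its standard error for the 38 proteasome genes (brightest probe set, 3 arrays a group), at 24 h (left) and 48 h (right), coloured by role; filled points passed an adjusted p of 0.05. PSMD4 lies lowest at 24 h (-0.66), and 4 filled points lie on each side of 0 at 48 h.

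Averaged over the 38 genes, the levels with and without Aa overlapped. The mean log2 value over the 38 genes was 11.76, 11.83 and 11.95 on the control arrays and 11.73, 11.83 and 11.89 on the Aa arrays at 24 h. At 48 h it was 11.52, 11.65 and 11.81 on the control arrays and 11.64, 11.72 and 11.82 on the Aa arrays. In each group the array numbered 1 was lowest and the array numbered 3 highest. Between arrays of the same number, Aa minus control was -0.03, -0.01 and -0.06 at 24 h and 0.12, 0.07 and 0.01 at 48 h, of one sign at each time.

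Of the 6 alpha ring genes tested, none passed at 24 h and 1 at 48 h (16.7%), beside 23.1% and 37.8% of all genes. PSMA3 encodes an alpha subunit of the core. At 24 h it stood at 12.44, 12.61 and 12.67 on the control arrays and at 12.41, 12.57 and 12.47 on the Aa arrays, which overlapped. Its control arrays at 48 h stood at 12.32, 12.55 and 12.51 and its Aa arrays at 12.02, 12.12 and 12.10. All 3 Aa arrays at 48 h lay below all other arrays, and PSMA3 fell by 0.38 on the log2 scale (SE 0.0986, limma adjusted p = 0.0125). The other alpha subunits lay above control at 48 h without passing: PSMA1 by 0.22, PSMA2 by 0.22, PSMA4 by 0.19, PSMA5 by 0.06 and PSMA7 by 0.27. With the replicate block, PSMA1 was called up at 24 h (adjusted p = 0.0136) and PSMA1, PSMA2 and PSMA7 at 48 h (adjusted p = 0.0267, 0.027 and 0.0135).

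Of the 7 beta ring genes, none passed at 24 h and PSMB5 passed at 48 h (14.3%), beside 23.1% and 37.8% of all genes. PSMB5 carries the chymotrypsin-like site, which proteasome inhibitor drugs block. Its control arrays at 48 h stood at 11.86, 12.05 and 12.15 and its Aa arrays at 12.32, 12.36 and 12.55, without overlap. It rose by 0.39 (SE 0.116, limma adjusted p = 0.0231). At 24 h, with 12.04, 12.16 and 12.30 in control and 12.14, 12.38 and 12.34 with Aa, the groups overlapped. The call at 48 h ended without the Aa array 3 (adjusted p = 0.0897), the control array 1 (0.0849) or the control array 2 (0.0502). PSMB6 and PSMB7, which carry the caspase-like and trypsin-like sites, differed by 0.18 and 0.16 at 48 h and did not pass. PSMB1, PSMB2, PSMB3 and PSMB4, which have no active site, differed by 0.06, 0.22, -0.04 and 0.04. PSMB2 was called up at 48 h with the replicate block (adjusted p = 0.0335).

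On their brightest probe sets, none of the 5 ATPase genes passed at either time, beside 23.1% of all genes at 24 h and 37.8% at 48 h. For PSMC2, 2 other probe sets were called up at both times and are described further on. PSMC1, PSMC2, PSMC3, PSMC4 and PSMC6 differed by 0.17, 0.09, -0.27, -0.16 and 0.06 at 24 h and by 0.32, 0.04, 0.14, 0.20 and 0.14 at 48 h. With the replicate block PSMC3 was called down at 24 h (adjusted p = 0.0287) and PSMC1 up at 48 h (adjusted p = 0.00439).

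Among the 9 non-ATPase subunits of the regulatory particle, PSMD4 fell at both times and PSMD2 rose at 48 h. The share called was 11.1% at 24 h and 22.2% at 48 h, beside 23.1% and 37.8% of all genes. PSMD4 is a receptor for ubiquitin chains. Its control arrays at 24 h stood at 11.64, 11.82 and 11.86 and its Aa arrays at 11.05, 11.09 and 11.18. At 48 h they stood at 11.59, 11.50 and 11.75 in control and at 11.20, 11.27 and 11.29 with Aa. All 6 Aa arrays lay below all 6 control arrays. PSMD4 fell by 0.66 at 24 h (SE 0.0966, limma adjusted p = 0.00109), to 0.632 of control, and fell by 0.36 at 48 h (SE 0.0966, limma adjusted p = 0.0143), to 0.779 of control. Its 2 other probe sets past the filter fell too: in the fit over probe sets the 3 differences ran from -0.80 to -0.65 at 24 h and from -0.47 to -0.36 at 48 h. The call of the brightest probe set at 48 h ended without the Aa array 1 (adjusted p = 0.0516) or the control array 3 (0.0501), while the call at 24 h held in 23 of 23 alternatives. All 3 probe sets are of the kind that can read several transcripts. The alternative without such probe sets therefore gave no value for PSMD4.

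PSMD2 is a scaffold of the regulatory particle that docks ubiquitin receptors. At 48 h its control arrays stood at 11.83, 11.79 and 12.15 and its Aa arrays at 12.31, 12.25 and 12.50, without overlap. It rose by 0.43 (SE 0.114, limma adjusted p = 0.0136), and the call ended without the Aa array 3 (adjusted p = 0.057) or the control array 2 (0.0534). At 24 h, with 12.20, 12.14 and 12.22 in control and 12.39, 12.28 and 12.45 with Aa, the groups did not overlap, but the difference of 0.19 did not pass (adjusted p = 0.257).

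PSMD12 belongs to the lid of the regulatory particle. Its control arrays at 24 h stood at 10.76, 11.00 and 11.12 and its Aa arrays at 10.09, 10.46 and 10.57. The groups did not overlap, yet the difference of -0.59 had an adjusted p of 0.0647 in limma and passed in 4 of 23 alternatives: with the replicate block (adjusted p = 0.000897), with only the compared groups fitted (0.0468), and without the control array 1 (0.042) or 3 (0.0421) of 48 h. With the gene taken as the mean of its probe sets the difference was 0.18. Its probe sets past the filter can all read several transcripts, so the alternative without such probe sets gave no value for PSMD12. The values at 48 h were 10.03, 10.42 and 10.80 in control and 9.99, 10.39 and 10.46 with Aa, which overlapped. The other subunits of this set did not pass at 48 h: PSMD1, PSMD6 and PSMD14, the deubiquitinase of the lid, differed by -0.20, -0.06 and -0.13, and PSMD3, PSMD8 and PSMD11 by 0.40, 0.39 and 0.08. PSMD3 and PSMD8 were called up with the replicate block (adjusted p = 0.00415 and 0.00442).

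Of the assembly chaperones, 1 of 3 for the base (33.3%) and 2 of 4 for the core (50%) were called at 48 h, beside 37.8% of all genes. PSMD5 helps to assemble the base of the regulatory particle. Its control arrays at 48 h stood at 10.28, 10.57 and 10.45 and its Aa arrays at 10.84, 10.91 and 11.00. At 24 h its control arrays stood at 10.68, 10.64 and 10.82 and its Aa arrays at 10.86, 10.86 and 10.96. The groups did not overlap at either time, and PSMD5 rose by 0.48 at 48 h (SE 0.099, limma adjusted p = 0.00369), 1.40 times control, while the 0.18 at 24 h did not pass. PSMD9 and PSMD10, of the same role, differed by 0.14 and 0.43 at 48 h, and PSMD10 was called up with the replicate block (adjusted p = 0.00276).

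The chaperones of the core act in pairs, PSMG1 with PSMG2 and PSMG3 with PSMG4. PSMG3 stood at 9.42, 9.33 and 9.51 on the control arrays and at 9.90, 9.69 and 9.98 on the Aa arrays at 24 h. At 48 h it stood at 9.31, 9.21 and 9.32 in control and at 9.72, 9.55 and 9.81 with Aa. All 6 Aa arrays lay above all 6 control arrays. PSMG3 rose by 0.44 at 24 h (SE 0.106, limma adjusted p = 0.0135), rose by 0.41 at 48 h (adjusted p = 0.0115), and the call at 24 h ended without the Aa array 3 (adjusted p = 0.0555). Its partner PSMG4 differed by 0.18 and -0.26 and did not pass.

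PSMG1 stood at 10.40, 10.44 and 10.66 on the control arrays and at 10.06, 10.33 and 10.12 on the Aa arrays at 24 h. By 48 h control arrays were at 10.19, 10.39 and 10.43 and Aa arrays at 9.50, 9.87 and 9.88. The groups did not overlap at either time. PSMG1 fell by 0.59 at 48 h (SE 0.134, limma adjusted p = 0.00648), to 0.666 of control, and its -0.33 at 24 h passed with the replicate block alone (adjusted p = 0.0191, against 0.103 without it). Its partner PSMG2 stood at 12.23, 12.14 and 12.16 in control and at 12.32, 12.49 and 12.43 with Aa at 24 h, a difference of 0.24 with an adjusted p of 0.0549 in limma (0.0234 with the replicate block). At 48 h PSMG2 stood at 12.21, 12.17 and 12.20 in control and at 12.12, 12.23 and 12.17 with Aa, and the groups overlapped.

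Of the 3 activators and 1 inhibitor tested, none passed at 24 h and PSME4 passed at 48 h (25%), beside 23.1% and 37.8% of all genes. PSME4 is a large nuclear activator of the core. It stood at 9.02, 9.21 and 9.31 on the control arrays and at 8.66, 8.83 and 8.90 on the Aa arrays at 24 h. At 48 h it stood at 8.79, 9.04 and 9.18 in control and at 8.30, 8.80 and 8.55 with Aa. The groups were apart at 24 h, where the difference of -0.38 did not pass (adjusted p = 0.0854, 0.00746 with the replicate block), and overlapped at 48 h, where PSME4 fell by 0.46 (SE 0.148, limma adjusted p = 0.0327). That call ended without the Aa array 1 (adjusted p = 0.127), the Aa array 3 (0.0785), the control array 2 (0.0862) or the control array 3 (0.107). PSME1 and PSME3, subunits of ring-shaped activators, differed by -0.21 and 0.11 at 48 h, and the inhibitor PSMF1 by -0.34 (adjusted p = 0.0539, 0.0443 with the replicate block). This was the lowest of the 4 probe sets of PSMF1 at 48 h, which ran from -0.34 to 0.28 with 0 called in the fit over probe sets. At 24 h they ran from -0.04 to 0.53, and 1 was called up.

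**Figure D2:**
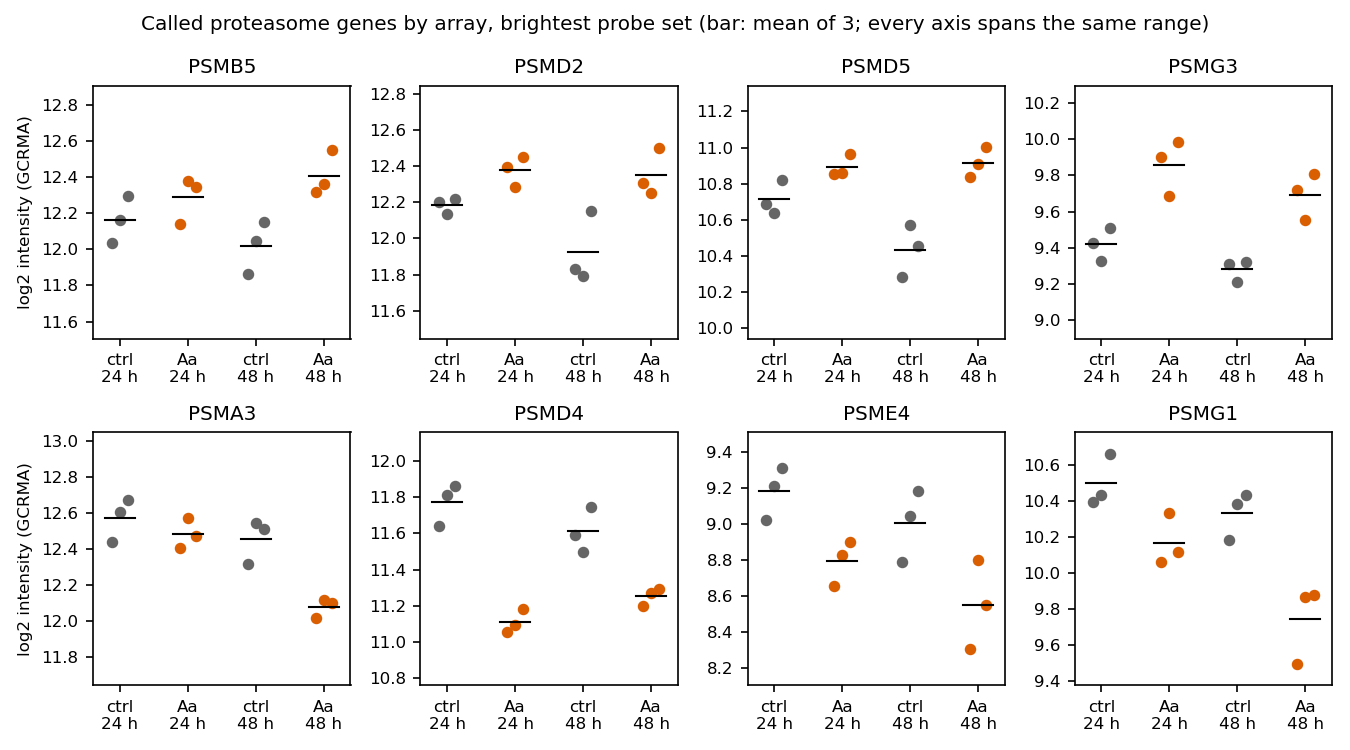
Log2 intensity of the brightest probe set on each array for the 8 genes called at 48 h, with control in grey, Aa in orange and the mean of 3 arrays as a bar; every axis spans the same range. The upper row holds the genes that rose and the lower row those that fell. PSMD2, PSMD4, PSMD5, PSMG1 and PSMG3 are apart from control at both times.

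Upstream sequences were examined for elements known from proteasome promoters. RefSeq entries on GRCh38.p14 gave 38 promoters for 32 of the 38 genes, each read over the 250 bases before the start; PSMA7, PSMB1, PSMB6, PSMB7, PSMD4 and PSMG3 were not matched. The letters TGACNNNGC, the element bound by the transcription factors NFE2L1 and NFE2L2, were found on either strand in 10 of 38 promoters (26.3%) and in 10.9% of 35116 promoters of the same length. CCGGAAG was found in 9 (23.7%, against 8.52%), CCAAT in 15 (39.5%, against 32.0%), TATAAA in 3 (7.89%, against 10.7%), and the cyclic AMP element TGACGTCA in 0 (against 1.65%). The called genes whose matched promoter held TGACNNNGC were PSME4 and PSMG1, which fell at 48 h, and PSMD5, which rose. Their sequences are shown with the match in capitals, 5′ to 3′ on the strand of the gene; in PSME4 the match is on the other strand. They lie on the minus strand at chr2:53970994-53971243 (PSME4), chr9:120842923-120843172 (PSMD5) and chr21:39183452-39183701 (PSMG1). A match describes these letters only.
PSME4: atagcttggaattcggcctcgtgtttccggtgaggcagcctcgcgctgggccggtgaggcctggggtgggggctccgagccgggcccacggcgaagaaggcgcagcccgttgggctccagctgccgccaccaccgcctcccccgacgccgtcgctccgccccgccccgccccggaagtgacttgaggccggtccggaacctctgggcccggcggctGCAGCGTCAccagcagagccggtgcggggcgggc
PSMD5: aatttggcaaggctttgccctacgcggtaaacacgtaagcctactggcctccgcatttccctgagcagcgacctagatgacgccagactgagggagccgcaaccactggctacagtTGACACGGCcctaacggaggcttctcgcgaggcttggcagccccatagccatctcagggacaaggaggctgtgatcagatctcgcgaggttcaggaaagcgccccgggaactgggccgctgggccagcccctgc
PSMG1: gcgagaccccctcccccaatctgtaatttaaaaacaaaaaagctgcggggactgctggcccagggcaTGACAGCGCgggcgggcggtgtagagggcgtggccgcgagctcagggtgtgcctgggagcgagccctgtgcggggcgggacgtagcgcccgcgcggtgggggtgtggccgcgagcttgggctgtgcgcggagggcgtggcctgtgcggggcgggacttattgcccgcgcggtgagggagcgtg

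Probe sets of one gene did not always change alike. Of 65 proteasome probe sets past the filter, taken singly, 9 rose and 3 fell at 24 h (18.5% called, against 22.3% of all probe sets), and 14 rose and 6 fell at 48 h (30.8%, against 33.9%). In 17 genes with several probe sets, each of 27 other probe sets was compared with the brightest one of its gene within each array, in a limma fit over 8838 such pairs that was added after the data were seen. At 24 h 8 pairs in 7 genes changed unequally (29.6%, against 19.1% of all pairs), and at 48 h 9 pairs in 8 genes (33.3%, against 16.5%). In all of these the other probe set rose relative to the brightest; over all pairs 11.1% at 24 h and 9.7% at 48 h were called in that direction. The array annotation does not say which transcript each probe set reads, and the cause was not tested.

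PSMD11, a lid subunit that joins the regulatory particle to the core, showed one of the widest gaps. Its brightest probe set stood at 12.01, 12.26 and 12.33 in control and at 11.89, 12.34 and 12.35 with Aa at 24 h, and differed by -0.01. Its other probe set stood at 7.18, 7.60 and 7.60 in control and at 10.05, 10.04 and 10.27 with Aa. At 48 h the other probe set stood at 6.76, 7.32 and 6.93 in control and at 9.46, 9.55 and 10.01 with Aa. The rises were 2.66 at 24 h and 2.67 at 48 h. The pair differed in change by 2.67 (SE 0.185, limma adjusted p = 4.46e-06) and 2.59 (adjusted p = 7.67e-06).

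PSMA5, an alpha subunit, had another probe set at 5.65, 6.43 and 6.57 in control and at 9.38, 9.23 and 9.27 with Aa at 24 h. The values at 48 h were 7.09, 7.74 and 6.27 in control and 8.65, 8.64 and 8.57 with Aa. It rose by 3.08 and by 1.58, without overlap at either time, while the brightest probe set differed by -0.14 and 0.06 (unequal change of 3.22, adjusted p = 9.62e-05, and 1.52, adjusted p = 0.0123).

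PSMD9, a chaperone of the base, had another probe set at 4.35, 4.51 and 5.36 in control and at 6.59, 6.31 and 7.11 with Aa at 24 h. At 48 h it stood at 3.84, 4.52 and 4.81 in control and at 6.64, 6.26 and 6.78 with Aa. It rose by 1.93 and by 2.17, against -0.05 and 0.14 on the brightest probe set (unequal change of 1.98, adjusted p = 0.00105, and 2.03, adjusted p = 0.00111). The control values of this probe set lay near the filter.

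**Figure D3:**
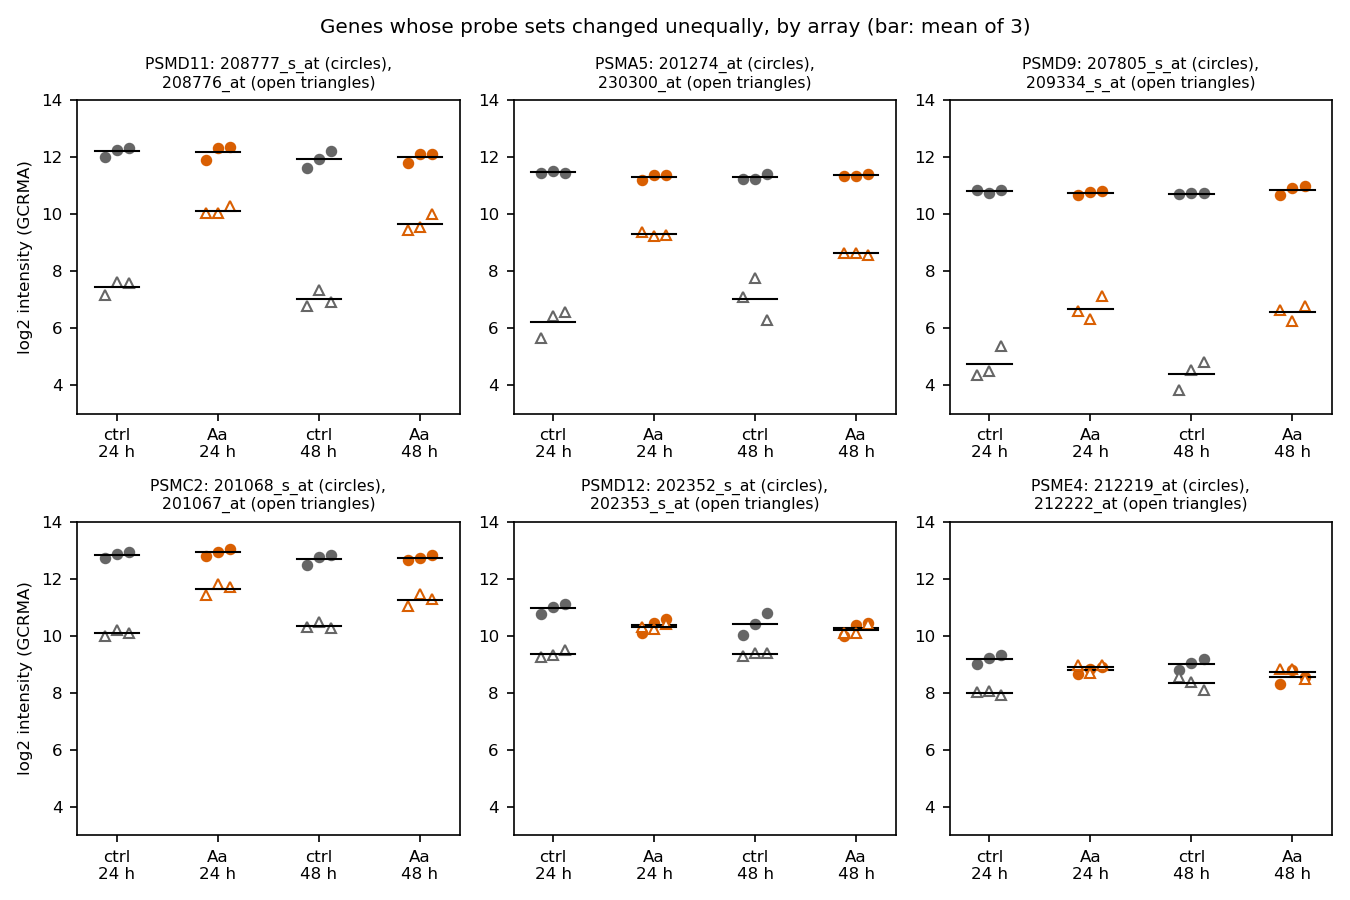
Log2 intensity on each array of the brightest probe set (circles) and another probe set (open triangles) of 6 proteasome genes, with control in grey, Aa in orange and the mean of 3 arrays as a bar. The triangles lie higher with Aa while the circles stay level or lie lower, with the widest gaps in change at 24 h for PSMA5 and PSMD11 and at 48 h for PSMD11 and PSMD9.

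The ATPase gene PSMC2 had 2 other probe sets, and both rose. The brighter of them stood at 9.97, 10.21 and 10.11 in control and at 11.44, 11.83 and 11.70 with Aa at 24 h, a rise of 1.56, and rose by 0.91 at 48 h. The dimmer one rose by 1.40 and 0.73. The brightest probe set of PSMC2 differed by 0.09 and 0.04, and both pairs changed unequally at 24 h (adjusted p = 3.23e-05 and 0.000233) and at 48 h (0.00141 and 0.014). The second of these calls at 48 h ended without the Aa array 3 (adjusted p = 0.0539) or the control array 3 (0.0571). Without the probe sets that can read several transcripts, the dimmer one was compared with the brighter one and the sign of the pair turned.

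PSMD12 and PSME4 were among the genes with probe sets whose differences were of opposite sign at both times. At 24 h this also held for PSMA5, PSMB2, PSMD9, PSMD11, PSME3 and PSMF1, and at 48 h for PSMB4 and PSMF1. In PSMD12 the other probe set stood at 9.24, 9.32 and 9.50 in control and at 10.31, 10.22 and 10.40 with Aa at 24 h, a rise of 0.96 beside the -0.59 above. It rose by 0.85 at 48 h, and the pair changed unequally by 1.55 (adjusted p = 0.000174) and 0.99 (adjusted p = 0.00376). PSME4 had 2 other probe sets past the filter. The brighter of them stood at 8.04, 8.04 and 7.90 in control and at 8.98, 8.71 and 8.97 with Aa at 24 h, a rise of 0.89 beside -0.38. At 48 h it differed by 0.38 (adjusted p = 0.0638) beside -0.46, and the pair changed unequally by 0.84 (adjusted p = 0.0281), a call that ended without the Aa array 1 (0.114), the control array 2 (0.0755) or the control array 3 (0.109). The dimmer one lay on the side of the brightest: it stood at 6.46, 6.92 and 7.46 in control and at 6.05, 6.55 and 6.46 with Aa at 24 h. It differed by -0.60 at 24 h and -0.85 at 48 h without passing (limma adjusted p = 0.284 and 0.099, and 0.0418 and 0.00691 with the replicate block), and its pair was not called at either time.

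PSME3 and PSMB2 had smaller gaps. Of the 3 other probe sets of PSME3, the dimmest rose by 0.86 at 48 h, and its pair changed unequally by 0.66 at 24 h (adjusted p = 0.0185) and 0.75 at 48 h (adjusted p = 0.0108). The call at 24 h ended without the Aa array 1 (adjusted p = 0.073) or the control array 1 (0.0735). The pairs of the other two differed in change by 0.02 and 0.32 at 48 h and were not called (adjusted p = 0.924 and 0.109), the second being called with the replicate block (0.0368). Of the 2 other probe sets of PSMB2, the dimmer rose by 1.20 at 48 h, and its pair changed unequally by 0.97 (adjusted p = 0.0448), a call that ended when any of 7 arrays was left out (adjusted p from 0.0568 to 0.149). The brighter rose by 0.49 at 48 h (adjusted p = 0.0352 over probe sets), and its pair, with a difference of 0.27, was not called (adjusted p = 0.316).

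**Figure D4:**
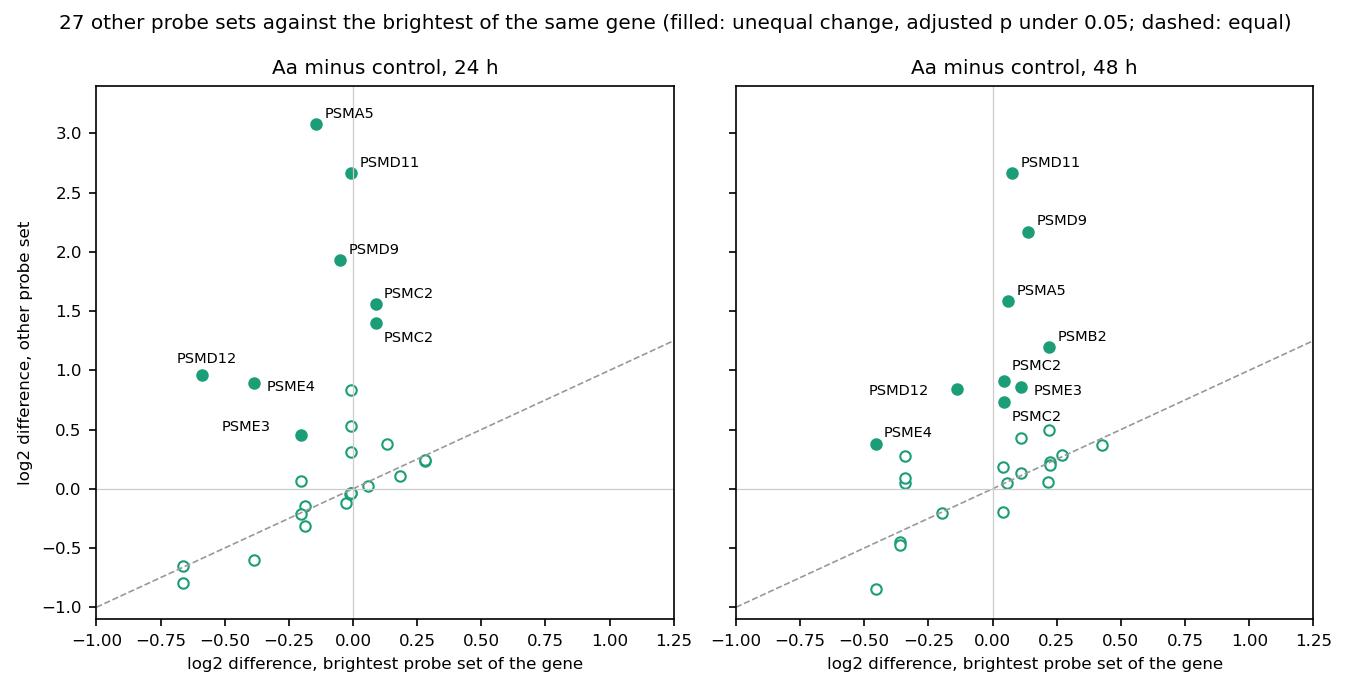
Log2 difference of Aa minus control for 27 other probe sets (vertical axis) against the brightest probe set of the same gene (horizontal axis) at 24 h (left) and 48 h (right); filled points changed unequally at an adjusted p under 0.05 and the dashed line marks equal change. All filled points, 8 at 24 h and 9 at 48 h, lie above the line, with PSMA5 and PSMD11 highest at 24 h.

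The change with Aa was not shown to differ between the times for any of the 38 genes. In limma 0 passed the interaction test (background 0.825%), and 3 had an unadjusted p under 0.05, beside 1534 of all 10791 genes. With the replicate block PSMD12 alone passed (adjusted p = 0.0462), beside 678 genes called up and 505 down of all 10791. In control cells 34 of 38 genes were lower at 48 h than at 24 h, with a median difference of -0.18 beside -0.01 over all genes. None of them passed (background 0.5%), and 10 had an unadjusted p under 0.05, beside 1800 of all 10791 genes. With the replicate block 12 were called down and 0 up, beside 981 down and 938 up of all 10791 genes (17.8% in either direction). In cells with Aa 23 of 38 were lower at 48 h, with a median of -0.08. PSMA3 and PSMD1 fell by 0.40 and by 0.48 (adjusted p = 0.0413 and 0.048 in limma, background 5.5%, with 263 of 10791 genes called down). These calls ended when any of 9 arrays (PSMA3, adjusted p up to 0.15) or any of 10 arrays (PSMD1, up to 0.18) was left out. With the replicate block 7 genes were called down and 0 up, beside 1075 down and 1228 up of all 10791 genes (21.3% in either direction). The comparisons over time share their arrays with those of Aa against control.

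Of 26 genes outside the symbol rule that act with the proteasome, 11.5% were called at 24 h (1 up and 2 down, background 23.1%). At 48 h 34.6% were called (3 up and 6 down), near the background of 37.8%. With the replicate block 3 were up and 6 down at 24 h (background 41.3% in either direction). In that fit 5 were up and 8 down at 48 h (background 54.8%). Among the 3 immunoproteasome subunits, PSMB10 fell by 0.67 at 24 h (adjusted p = 0.00222) and differed by 0.18 at 48 h. PSMB8 rose by 0.69 at 48 h (adjusted p = 0.0018), and PSMB9 passed at neither time. UBQLN4, a shuttle that carries ubiquitin-tagged proteins, rose by 0.95 at 48 h (adjusted p = 0.000861), and ZFAND2A, a zinc finger protein that binds the proteasome under arsenite stress, rose by 1.12 (adjusted p = 0.00537). The 6 genes that fell at 48 h were ECPAS, ZFAND5, TXNL1, UBA6, NFE2L1 and VCP. Of proteins that bind the proteasome, as ZFAND2A does, the adaptor ECPAS fell by 0.60 (adjusted p = 0.00609), the zinc finger protein ZFAND5 fell by 0.28 (adjusted p = 0.0288) and the thioredoxin-like TXNL1 fell by 0.22 (adjusted p = 0.0465). With the mean of their probe sets ECPAS and TXNL1 lay above control (0.31 and 0.59). The call of ZFAND5 ended without any of 5 arrays and that of TXNL1 without any of 10. UBA6, a ubiquitin-activating enzyme, fell by 0.40 (adjusted p = 0.0137), a call that ended without the Aa array 3 (0.0561) or the control array 2 (0.054). NFE2L1, the transcription factor that raises proteasome genes when proteasome activity is lost, fell by 0.37 at 48 h (adjusted p = 0.0237). That call ended without the Aa array 2 (0.0703) or 3 (0.0726), or the control array 1 (0.0843) or 3 (0.0541). VCP, the segregase upstream of the proteasome, fell by 0.48 at 24 h (adjusted p = 0.0202), a call that ended without the Aa array 1 (0.0567) or the control array 3 (0.0814). It fell by 0.35 at 48 h (adjusted p = 0.0499), a call that ended when any of 11 arrays was left out. The shuttle UBQLN2 rose by 0.57 at 24 h (adjusted p = 0.0258), a call that ended when any of 4 arrays was left out. None of the 4 assembly factors and subunits that the rule leaves out (POMP, ADRM1, SEM1 and PAAF1) passed.

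The 8 symbols that are no proteasome genes were PSMA3-AS1, PSMB8-AS1, PSMC3IP, PSMD14-DT, PSMD6-AS2, PSMD7-DT, PSME3IP1 and PSMG3-AS1. With them the rule gave 43 genes tested. Of these, 4 were called at 24 h (9.3%, against 23.1% of all genes) and 10 at 48 h (23.3%, against 37.8%). PSMC3IP, a partner of the meiotic recombinases, rose on both of its probe sets, by 0.79 and 0.66 at 24 h and by 1.33 and 1.08 at 48 h. PSMB8-AS1, an antisense RNA, rose by 0.44 at 24 h (adjusted p = 0.0342). Of the 4 probe sets of PSME3IP1, 2 rose at 48 h, by 0.30 and 0.31.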

How the data were processed

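Each Affymetrix array measured RNA from HK-2 cells, and the labels gave 4 groups of 3 arrays. The log2 values were deposited by the authors after normalisation with GCRMA, per the submitters' processing notes (version not stated), and were used unchanged; they run from 0.82 to 16.25. The number of arrays limits the precision. Genes were named from the array annotation, with symbols updated through RefSeq.

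Probe sets of 1 symbol with a mean of at least 4 were kept, and each gene took its brightest. One model of the 4 group means, over 12 arrays, was run in R 4.3.3 with limma 3.58.1 (lmFit and eBayes, two-sided, Benjamini-Hochberg over all genes, probe sets or pairs tested, called under 0.05), and tested on simulated data. The fit of probe set pairs and the alternatives for cell type markers were added after the data were seen. The members and lists were chosen with earlier results of these data known.

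Array by array values were given for the 10 proteasome genes with the smallest p for Aa against control, and at least 1 value for every other gene; those of the unequal probe sets were added after their values were seen. Same-numbered arrays deviated together: the correlation of their deviations from the group means was 0.35 to 0.62 in 18 pairs and -0.49 to -0.01 in 36 others. The numbers come from the labels. Alternatives covered the filter, normalisation, moderation, replicate block, choice of probe set and left-out arrays.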

Additional observations from a re-analysis of the deposited data

Results flagged for a closer look

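PSMB10, an immunoproteasome subunit outside the symbol rule, was set apart by a difference between the times. Its change with Aa was 0.85 higher on the log2 scale at 48 h than at 24 h (limma interaction, adjusted p = 0.0439), with -0.67 at 24 h and 0.18 at 48 h. The adjusted p of the interaction ranged from 0.00917 to 0.486 over 23 alternatives and passed in 10 of them. The call of the interaction ended when any of 9 single arrays was left out (adjusted p from 0.0771 to 0.118).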

How the results depend on the processing

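With 3 arrays a group, single arrays decided many calls. The share of all genes or probe sets called in each alternative is not given beside the counts below. They therefore do not set the proteasome genes apart from other genes. For genes with the replicate block, the calls over all genes are given above. With the replicate block in the fit, 8 genes were called at 24 h (2 without it) and 17 at 48 h (8 without it), 25 and 35 probe sets (12 and 20), 12 genes and 14 probe sets over time in control cells (0 and 0), 7 and 13 in cells with Aa (2 and 0), 1 gene and 1 probe set in the interaction (0 and 0), and 9 other pathway genes at 24 h (3). All 2 genes of 24 h and all 8 of 48 h were among those called with the block. Trend and robust moderation called 4 genes at 24 h, 13 at 48 h and 3 probe sets over time with Aa. With only the compared groups fitted, 5 proteasome genes and 5 other pathway genes were called at 48 h, and 0 proteasome genes over time with Aa.

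With a gene taken as the mean of its probe sets, 6 genes were called at 24 h and 1 over time with Aa, the median at 24 h was 0.079, and among changes called in either setting the signs turned for PSMA5 (1.47), PSMD11 (1.33), PSMD9 (0.94), ECPAS (0.80 at 24 h and 0.31 at 48 h) and TXNL1 (1.34 and 0.59); PSMD12 at 24 h, called in neither, turned from -0.59 to 0.18. Without the probe sets that can read several transcripts, 7 and 12 probe sets, 2 and 2 pairs of 6, 1 gene over time with Aa and 4 other pathway genes at 48 h were called, the median at 24 h was 0.058, and the signs turned for PSMD11 at 24 h (2.66), POMP at 24 h (0.70) and a pair of PSMC2 (-0.16 at 24 h and -0.18 at 48 h). These settings replace the probe set that is read. Quantile normalisation moved the median at 24 h to 0.018, and it, no filter and a minimum of 6 each called 2 probe sets over time with Aa; arrays centred on their median called 1 gene there.

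Leaving out arrays gave 1 to 3 genes at 24 h and 2 to 11 at 48 h, 10 to 14 and 5 to 20 probe sets, and 7 to 9 and 4 to 9 pairs. It gave 0 to 1 gene and 0 to 1 probe set over time with Aa, 0 genes and 0 to 1 probe set in controls and in the interaction, and 0 to 6 and 1 to 9 other pathway genes. The median ran from -0.047 to 0.023 at 24 h and from 0.028 to 0.18 at 48 h. At 24 h the count of genes fell to 1 without the Aa array 3, and at 48 h to 5 without the Aa array 3 or the control array 2.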

Other observations

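The genomic span of the 38 genes, from start to end in the RefSeq annotation, had a median of 16.2 kb, beside 30.5 kb over all genes tested. Across these genes the span and the change with Aa had a Spearman correlation of 0.05 at 24 h and -0.28 at 48 h, a description over 38 genes that share the same arrays and are not independent replicates.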
